A study of Rattus norvegicus with 17 samples.

Results

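A set of 4 genes of the fibrous extracellular matrix was followed in the spinal cords of 17 rats: Col1a1 (ENSRNOG00000003897), Col1a2 (ENSRNOG00000011292) and Col3a1 (ENSRNOG00000003357), which encode chains of fibrillar collagens, and Fn1 (ENSRNOG00000014288), which encodes fibronectin. They were chosen by name as genes of the fibrotic lesion and the meninges, with earlier results of these data known. They are 4 of the 32494 genes in the count table. The 3 genes Col1a1, Col3a1 and Fn1 had at least 1157 counts in every rat and passed the filter on low counts, whereas Col1a2 did not pass it.

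Female young-adult rats, Sprague-Dawley according to the study's methods and Brown Norway according to its keywords, had a thoracic laminectomy with a moderate contusion of the cord (SCI), under ketamine and xylazine, or sham injury. At 3 days, under isoflurane, an electrode was placed in the nucleus raphé magnus (NRM), a serotonergic nucleus of the lower brainstem, in all groups, and the cord was taken after the stimulation period. Group A had sham injury and sham stimulation (4 rats), group E sham injury with stimulation for 2 h (5 rats), group B SCI and sham stimulation (3 rats), group C SCI and stimulation (3 rats), and group D SCI, stimulation and pimozide, an antagonist of serotonin and dopamine receptors, at 1 mg/kg (2 rats). The treatment labels of group E call these rats unstimulated, against the letter in their titles and the study's definition of the group, and they were analyzed as stimulated. Groups A and E are called intact here (9 rats) and groups B, C and D injured (8 rats). The methods describe a laminectomy without contusion for some control rats and do not say which, so the contusion and the laminectomy cannot be told apart where a control had neither.

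Blocks of cervical, thoracic and lumbar cord, with the pia-arachnoid, went into 1 library per rat, and a value therefore averages the lesion with cord above and below it. Libraries held 9852873 to 14137717 counts on genes, with a median of 10914536. For Col1a1, Col3a1 and Fn1, the error of counting alone was at most 2.94% of the count in any rat. No pair of rats within a group had counts that matched within sampling noise, since their chi-square per degree of freedom lay between 4.19 and 38.0 over 23 pairs. Levels are given as CPM, counts scaled to library size with TMM, edgeR's correction for library composition. They are not divided by transcript length and compare rats, not genes.

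Fibrillar collagens are long triple helices that assemble into the fibers of connective tissue. Type I collagen is built mostly from chains of Col1a1 together with a chain of Col1a2, and type III collagen from chains of Col3a1 alone. Fibronectin is a dimeric glycoprotein that cells pull into fibrils through integrins and that binds collagen. In the intact cord these proteins lie mainly in the meninges and around larger vessels, where fibroblasts make them, and after a contusion fibroblasts and fibrous matrix accumulate in the lesion. In tissue that was not separated into cells, more cells of a type and more RNA per cell cannot be told apart.

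Of these genes only Col1a2 was matched by symbol in the RefSeq promoter sequences used here (GRCr8), and Col1a1, Col3a1 and Fn1 were not. The 250 bases before the annotated start of Col1a2, on the plus strand at chr4:33518307-33518556, are shown because Col1a2 encodes the partner chain of Col1a1 and holds a TATAAA and an inverted CCAAT within this stretch (in capitals).
Col1a2 promoter: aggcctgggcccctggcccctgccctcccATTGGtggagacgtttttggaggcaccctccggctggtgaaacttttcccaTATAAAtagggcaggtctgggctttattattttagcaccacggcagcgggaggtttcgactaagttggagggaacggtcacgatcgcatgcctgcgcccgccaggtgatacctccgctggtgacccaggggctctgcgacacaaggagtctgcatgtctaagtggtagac
The TATAAA began 170 bases before the start and the CCAAT, on the minus strand, 221 bases before it. Searched on both strands, TATAAA was present in 12.9% and CCAAT in 34% of 33469 promoters of the same table. CAGAC, the core of a Smad site, was found 2 times on the minus strand (156 and 23 bases before the start) and was present in 42.9% of promoters. GGGCGG and TGANTCA, the letters of GC box and AP-1 sites, were not in this window and were present in 30.5% and 6.34% of promoters. A match of letters is a description and does not show that a factor binds.

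Col1a1, Col3a1 and Fn1 were all higher on average in injured than in intact cords, Fn1 with no overlap between the rats and the collagens with overlap. Fn1 rose 2.42-fold and Col3a1 2.71-fold, both past the threshold for a call, whereas the 1.96-fold difference of Col1a1 passed the FDR but not the fold limit. The 3 highest levels of each gene were found in the same injured rats (76, 89 and 91).

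Fn1 was measured at 265, 223, 252 and 319 CPM in the rats of group A (numbers 70, 82, 83 and 84) and at 287, 264, 174, 182 and 261 CPM in those of group E (69, 85, 86, 87 and 88). It was at 639, 373 and 518 CPM in group B (91, 94 and 95), at 905, 509 and 335 CPM in group C (89, 90 and 93) and at 477 and 982 CPM in group D (75 and 76). The lowest injured rat (93) was thus above the highest intact rat (84), and injury separated all 17 rats. The means were 265 ± 40.4 CPM in A (SD, n = 4), 233.5 ± 51.8 in E (n = 5), 510.1 ± 133 in B (n = 3), 583 ± 292 in C (n = 3) and 729 ± 357 in D (n = 2). In this order of the groups, D, C, B, A and E, the ranges of neighbors overlapped except between B and A.

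Col3a1 was at 203, 121, 168 and 228 CPM in group A and at 156, 265, 150.2, 271 and 237 CPM in group E, with the rats in the order given for Fn1. It was at 856, 329 and 247 CPM in group B, at 969, 266 and 171 CPM in group C and at 459 and 895 CPM in group D. Rats 89, 76 and 91, 1 from each injured group, stood at 856 CPM or more, while rats 95, 90 and 93 lay within the intact range. Group means were 180.0 ± 46.6 CPM in A, 216 ± 58.9 in E, 477 ± 330.5 in B, 469 ± 436 in C and 677 ± 308 in D (SD, same n). The order was D, B, C, E and A, and the ranges of all neighbors overlapped.

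Col1a1 was at 170.5, 162, 189.6 and 199 CPM in group A and at 109, 153, 91.2, 118 and 232 CPM in group E. It was at 389.9, 167 and 196 CPM in group B, at 382, 192 and 100.5 CPM in group C and at 358 and 711 CPM in group D. The 4 rats above every intact rat (76, 91, 89 and 75) were the same that led in Col3a1, and rat 93 of group C was below all but 1 intact rat. The means were 180.3 ± 16.9 CPM in A, 141 ± 55.9 in E, 251 ± 121 in B, 225 ± 144 in C and 534.5 ± 250.3 in D (SD, same n), and the ranges of neighbors in the order D, B, C, A and E overlapped throughout.

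**Figure D1:**
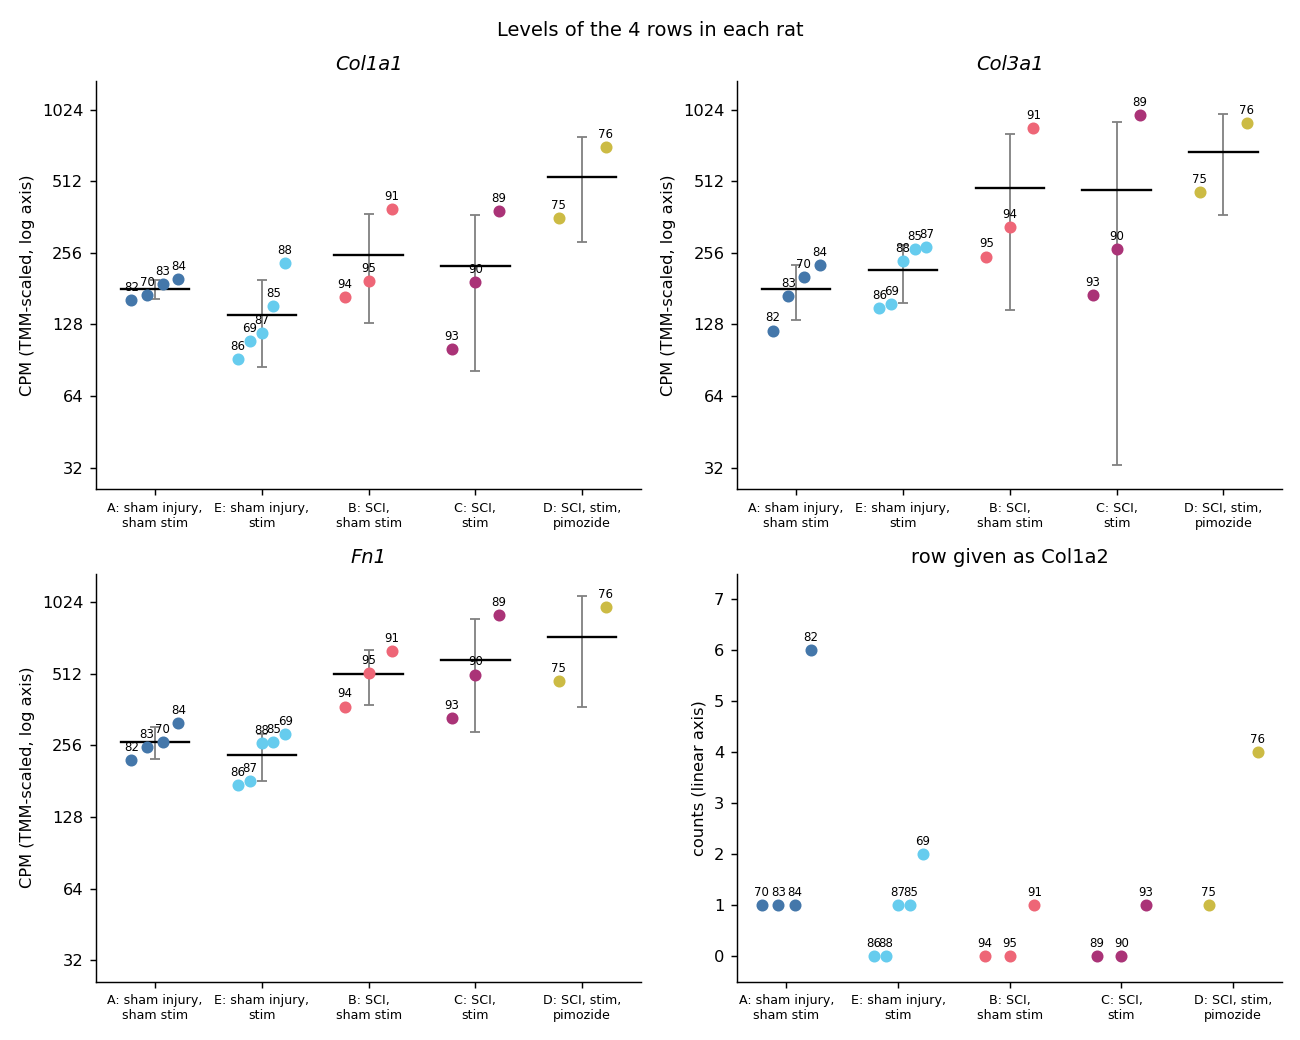
Level of each gene in each rat by group: CPM on a log axis for Col1a1, Col3a1 and Fn1 (point, rat with its number; line, group mean; bar, ±SD), and counts on a linear axis for the gene listed as Col1a2. For Fn1 the lowest injured rat, at 335 CPM, lies above the highest intact rat, at 319 CPM, and Col1a2 has at most 6 counts in any rat.

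Col1a2 had 20 counts in all 17 rats together. It had 6 counts in rat 82, 4 in rat 76, 2 in rat 69, 1 each in 8 further rats and 0 in 6 rats. Col1a1 had 44675 counts in the same libraries, 2234-fold more. The total of Col1a2 was in the lower 44.8% of genes in the table, and the gene was not tested. The cause of this low count was not tested, and the level of the Col1a2 partner chain could not be read from these data.

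The comparison of injured with intact cords, the mean of groups B, C and D against that of A and E, asked what contusion did whatever the stimulation. Each contrast came from edgeR's quasi-likelihood fit to all rats together, over the 15460 genes that passed the filter. To be called, a gene had to have an FDR (Benjamini-Hochberg adjusted p) under 0.05 and an absolute log2(FC) above 1. Of the 3 genes tested, 2 were called higher, beside 6.97% of all genes tested. Fn1 differed by a log2(FC) of 1.27 (SE 0.19, 95% confidence interval 0.87 to 1.68, adjusted p = 6.5e-05). All 8 injured rats were above all 9 intact rats in Fn1, as was so for 8.52% of genes. For Col3a1 the log2(FC) was 1.44 (SE 0.32, interval 0.76 to 2.12, adjusted p = 0.0019), with 5 of 8 injured rats above every intact rat. For Col1a1 it was 0.97 (SE 0.25, interval 0.43 to 1.50, adjusted p = 0.0054), with 4 of 8 injured rats above every intact rat. Without the fold limit all 3 passed, beside 22.5% of genes. The median log2(FC) of the 3 genes was 1.27 and that of all genes tested was -0.03.

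A two-sided exact permutation test of the mean log2 level over rats, added after the data were seen, gave p = 0.0047 for Col3a1 (difference 1.17) and 0.032 for Col1a1 (0.80). For Fn1 (difference 1.19) the separation of the rats already fixes this p at its smallest possible value, 8.2e-05, and the exact test adds nothing to it. The larger injured mean did not rest on the pimozide group for Fn1 and Col3a1. In fits that were likewise added after the data were seen, without group D the log2(FC) was 1.13 for Fn1 (adjusted p = 0.00016) and 1.27 for Col3a1 (adjusted p = 0.0067), both still called. Without group D Col1a1 had a log2(FC) of 0.58 (adjusted p = 0.086) and passed neither limit. Both rats of group D have numbers from the lower series (69 to 76), in which no rat of B or C falls. Among rats 82 to 95 alone, an added fit too, which leaves out group D, the values were 1.18 for Fn1 (adjusted p = 0.00063), 1.25 for Col3a1 (0.019) and 0.53 for Col1a1 (0.17).

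**Figure D2:**
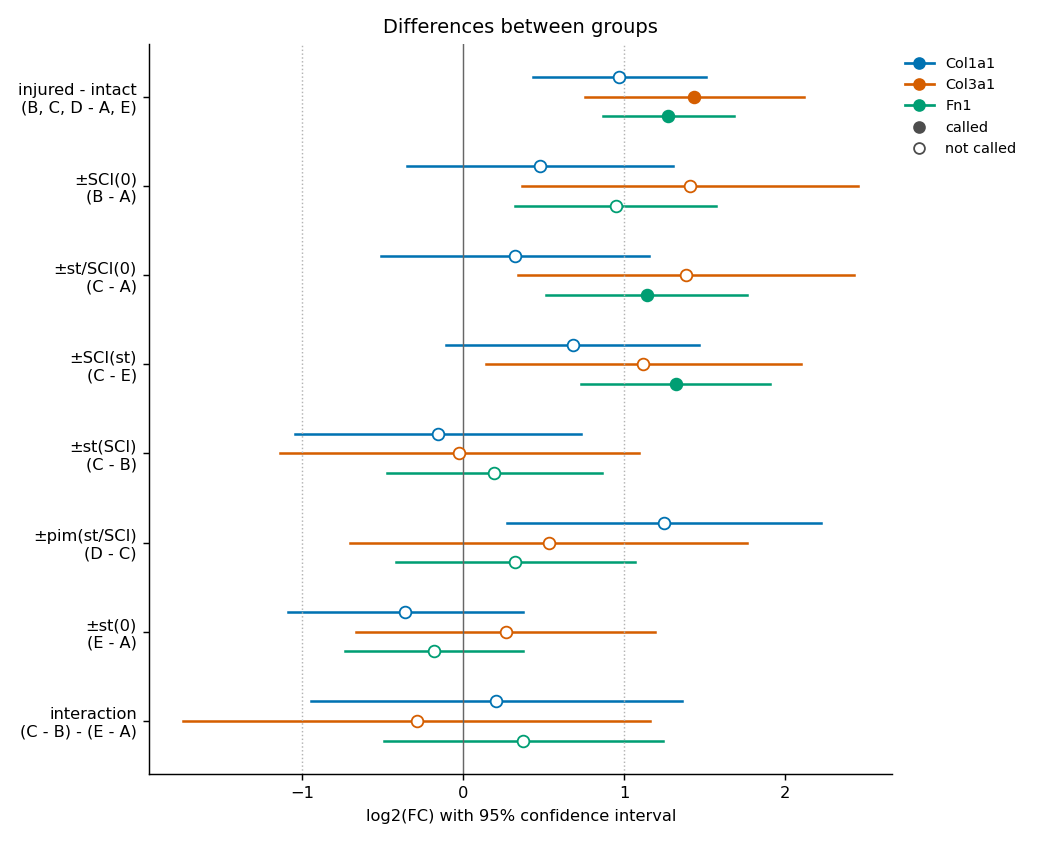
Difference between groups for Col1a1, Col3a1 and Fn1 in the 6 contrasts of the study, in injured against intact rats and in the interaction: log2(FC) with its 95% confidence interval from edgeR's quasi-likelihood fit (filled, called; dotted lines, fold limit of 1). Filled points are found for Fn1 in 3 contrasts and for Col3a1 in 1, all with injury on 1 side.

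The contrast ±SCI(0), group B minus group A, asked what injury did without stimulation. None of the 3 genes was called by edgeR's quasi-likelihood test of all rats or by DESeq2, beside 5.09% of genes called higher, although 2 of 3 had an unadjusted p under 0.05 (28.3% of genes in either direction). Fn1 passed the FDR with a log2(FC) of 0.95 (SE 0.30, interval 0.32 to 1.57, adjusted p = 0.044), just under the fold limit, as 9.64% of genes passed it upward. Col3a1 had the larger difference, 1.41 (SE 0.50, interval 0.36 to 2.45), but missed the FDR (adjusted p = 0.073), though edgeR's exact test called it, with all rats (1.41, adjusted p = 0.031) or the 2 groups alone (1.42, adjusted p = 0.00027). The quasi-likelihood test also called it with the 2 groups fitted alone (1.43, adjusted p = 0.014) and without the filter on low counts (1.41, adjusted p = 0.045). All rats of B were above all rats of A in both genes, beside 17.4% of genes. Col1a1 differed by 0.48 (SE 0.39, interval -0.35 to 1.31, adjusted p = 0.45), with overlapping rats. Rat 91 carried much of these values. The pass of Fn1 was narrow. It was lost (adjusted p = 0.053 to 0.22) without any 1 of rats 70, 82, 83, 84, 91, 95, 90, 85 and 88, with robust dispersions (0.054), with a term for the number series (0.052) and among rats 82 to 95 alone (0.054). Without rat 91 the log2(FC) was 0.75 for Fn1 (adjusted p = 0.22), 0.68 for Col3a1 (0.49) and 0.0088 for Col1a1 (0.99). Fn1 was called without rat 94 (1.13, adjusted p = 0.031), and Col3a1 without rat 89 or rat 93 of group C, which enter this contrast through the shared spread (1.41, adjusted p = 0.014 and 0.037).

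In ±st/SCI(0), group C minus group A, Fn1 was called higher, with a log2(FC) of 1.14 (SE 0.30, interval 0.52 to 1.76, adjusted p = 0.012). This was 1 of the 3 genes, beside 6.7% of genes called higher, and the rats of C were above those of A, beside 16.4% of genes. Col3a1 differed by 1.38 (SE 0.49, interval 0.34 to 2.43, adjusted p = 0.055) and Col1a1 by 0.32 (SE 0.39, interval -0.51 to 1.15, adjusted p = 0.58). Neither collagen was called by edgeR's quasi-likelihood test or by DESeq2, and rat 93 lay inside the range of group A for Col3a1 and below it for Col1a1. Col3a1 was called here in 5 of 17 fits with a rat left out (rat 90, 91, 93, 75 or 76), with an adjusted p of 0.0092 to 0.048. It was also called by edgeR's exact test with all rats (1.38, adjusted p = 0.025) or the 2 groups alone (1.39, adjusted p = 0.028), and without the filter on low counts (1.41, adjusted p = 0.031).

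Among stimulated rats, in ±SCI(st), group C minus group E, Fn1 was again called higher, with a log2(FC) of 1.32 (SE 0.28, interval 0.73 to 1.91, adjusted p = 0.0024) and no overlap. This was 1 of 3 genes, beside 7.34% of genes called higher and 15.2% not overlapping. The differences were 1.12 for Col3a1 (SE 0.46, interval 0.14 to 2.10, adjusted p = 0.080, but 0.047 and called by edgeR's exact test with all rats) and 0.68 for Col1a1 (SE 0.37, interval -0.11 to 1.47, adjusted p = 0.18). These 3 contrasts share groups A and C and are not independent of each other.

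Rat 89 decided the calls in group C. Without it Fn1 was not called in ±st/SCI(0) (log2(FC) 0.67, adjusted p = 0.15), and in ±SCI(st) it kept the FDR but not the fold limit (0.85, adjusted p = 0.038). The collagens then differed by 0.28 (Col3a1) and -0.30 (Col1a1) in ±st/SCI(0) and by 0.019 and 0.060 in ±SCI(st). Without rat 93 the differences in ±SCI(st) were 1.53 for Col3a1 (adjusted p = 0.015) and 1.04 for Col1a1 (adjusted p = 0.031), and both were called. In the comparison of all injured with all intact rats, Fn1 and Col3a1 were called in 17 of 17 fits with a rat left out, and Col1a1 in 6 of 17 (without rat 94, 95, 90, 93, 75 or 88).

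**Figure D3:**
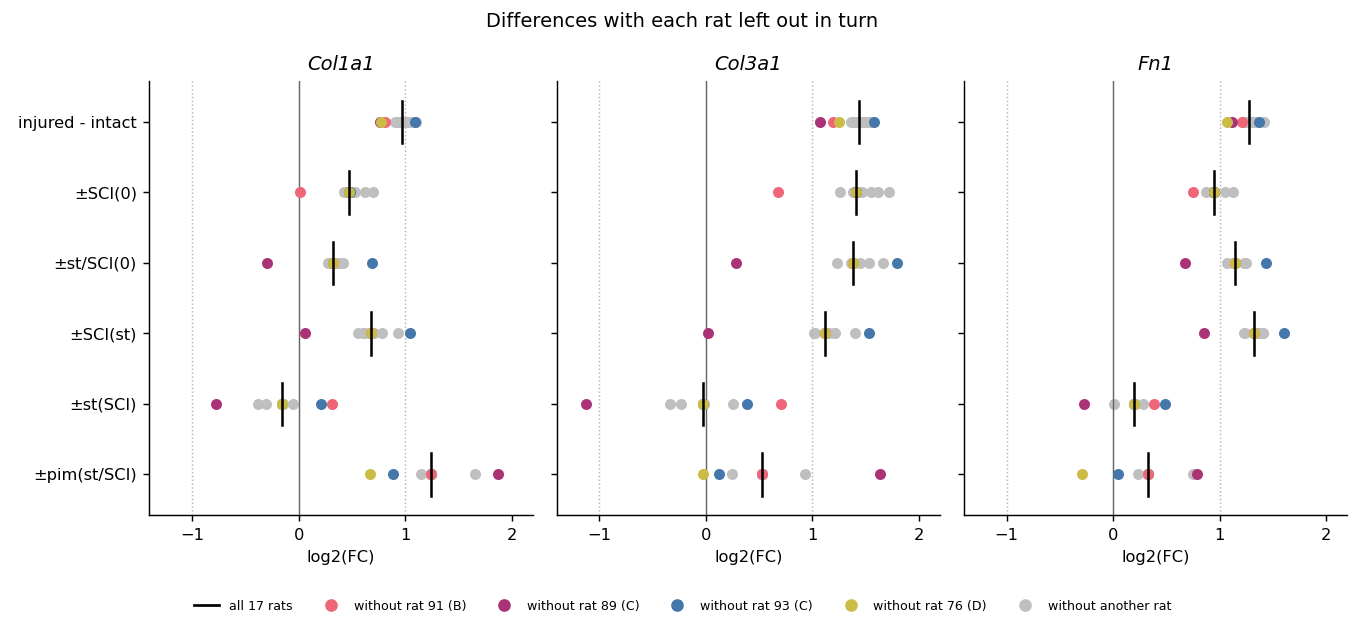
log2(FC) of each gene with each rat left out in turn (points; colored for rats 91, 89, 93 and 76) and with all 17 rats (black lines), for injured against intact rats and 5 contrasts; dotted lines, fold limit of 1. In injured against intact rats every point of Col3a1 and Fn1 lies above 1, whereas in the contrasts of single groups rats 91, 89 and 76 move the collagens most.

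Of the marker lists drawn up, only that of erythroid cells was matched to identifiers. The erythroid list (6 genes of red cell precursors) had a summed level of 226 to 1723 CPM in injured and 203 to 1043 CPM in intact rats. In ±SCI(st), where Fn1 was called, 5 of its 6 genes were called higher (7.34% of all genes), with 575 to 1723 CPM in C against 240.2 to 600.2 CPM in E. These genes could be named only through a table of genes that the study flagged on these rats, in C against B or D against C. The list was thus picked partly by its level in group C, and nothing is read from this count. In ±st/SCI(0) and in injured against intact rats, where Fn1 was called too, 0 of the 6 were called by the same test, with median log2(FC) of 0.71 and -0.22. The median of the list was -1.13 in ±SCI(0), 1.71 for C against B, -1.96 for D against C and -0.73 for E against A, where that of all genes tested lay between -0.02 and 0.01. The values for C against B and D against C restate the choice of these genes and are no separate result. Over 17 rats the log2 level of the list had a correlation of -0.35 with the mean of Col1a1, Col3a1 and Fn1 (a description). Its part in the result was not tested. Lists of fibroblasts, mural cells, endothelium, macrophages, nerve roots, muscle and bone, of collagen processing enzymes, other collagens, receptors and the TGF-beta pathway were not matched to identifiers, so their levels were not analysed here. How much meninges a block held was not tested either.

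Stimulation of the NRM was asked about in ±st(SCI), group C minus group B, and in ±st(0), group E minus group A. No gene of the 3 passed an unadjusted p of 0.05 in either contrast, and none was called by edgeR's quasi-likelihood or exact tests or by DESeq2. Of all genes tested, 0% were called by the quasi-likelihood test in both, and 3.08% and 8.39% had an unadjusted p under 0.05. In injured rats the log2(FC) was 0.19 for Fn1 (interval -0.48 to 0.86), -0.03 for Col3a1 (-1.14 to 1.09) and -0.16 for Col1a1 (-1.05 to 0.73), each with an adjusted p of 1. In intact rats it was -0.18 for Fn1 (interval -0.73 to 0.37, adjusted p = 0.89), 0.26 for Col3a1 (-0.67 to 1.19, 0.91) and -0.36 for Col1a1 (-1.09 to 0.37, 0.81). The intervals reach past the fold limit of 1 for both collagens in both contrasts, and for Col3a1 in injured rats in either direction. Leaving out 1 rat moved the Col3a1 value in ±st(SCI) from -1.13 (without rat 89) to 0.70 (without rat 91). Without rat 89 its unadjusted p in the quasi-likelihood test was 0.024, and it was not called.

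The interaction (C - B) - (E - A), which asks whether stimulation acted differently in injured and intact cords, was 0.37 for Fn1 (interval -0.49 to 1.24), -0.29 for Col3a1 (-1.74 to 1.16) and 0.20 for Col1a1 (-0.95 to 1.36). All had an adjusted p of 1, none had an unadjusted p under 0.05 and none was called by DESeq2. Of all genes, 0% were called and 4.11% had an unadjusted p under 0.05. Single rats turned the sign of these values. Without rat 89 the interaction was -1.39 for Col3a1 (unadjusted p = 0.023 in edgeR's quasi-likelihood test, not called), -0.42 for Col1a1 and -0.094 for Fn1. Without rat 91 it was 0.44, 0.67 and 0.57. Beside these genes, Mmp13, a collagenase that cleaves fibrillar collagens, was at 9.91, 9.02 and 7.90 CPM in group C and at 1.28, 0.0962 and 0.867 CPM in group B. It was at 0.833 to 5.13 CPM in A, 0.170 to 3.85 in E and 0.570 and 1.45 in D. Its log2(FC) in ±st(SCI) was 3.55 (SE 0.79, unadjusted p = 0.00033, adjusted p = 1), while both collagens had the values given above. The study flagged Mmp13 in ±st(SCI) on these rats, so this value restates that choice. In edgeR's quasi-likelihood test the log2(FC) of Mmp13 was -1.86 for B against A (adjusted p = 0.14) and -0.18 in injured against intact rats (0.78).

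Pimozide was examined in ±pim(st/SCI), group D minus group C, with 2 rats in D. Col1a1 had a log2(FC) of 1.25 (SE 0.46, interval 0.27 to 2.22), an unadjusted p of 0.015 and an adjusted p of 0.39, and the groups overlapped, since rat 75 of D, at 358 CPM, was below rat 89 of C, at 382 CPM. Col3a1 differed by 0.53 (interval -0.70 to 1.76, adjusted p = 0.86) and Fn1 by 0.32 (interval -0.42 to 1.06, adjusted p = 0.86). None of the 3 was called by edgeR's quasi-likelihood or exact tests or by DESeq2, 1 of 3 had an unadjusted p under 0.05 (8.86% of genes in either direction), and 0.0259% of genes were called higher. Single rats moved these values far in both directions. Without rat 76 they were 0.67 for Col1a1, -0.03 for Col3a1 and -0.29 for Fn1. Without rat 89 of group C they were 1.87, 1.63 and 0.79, with unadjusted p-values of 0.00067, 0.004 and 0.025 and adjusted p-values of 0.14, 0.21 and 0.30 in edgeR's test. Both rats of D and none of C have numbers of the lower series, which rat 70 of A and rat 69 of E share. With a term for the number series the differences were 1.52 for Col1a1 (unadjusted p = 0.033, adjusted p = 0.82), 0.68 for Col3a1 (adjusted p = 0.95) and 0.12 for Fn1 (adjusted p = 0.99).

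The 3 genes varied more between rats of a group than most genes did. The biological coefficient of variation estimated by edgeR was 35.5% for Col1a1, 44.1% for Col3a1 and 27.0% for Fn1. Genes within 0.5 log2 units of their abundance had medians of 9.44%, 9.72% and 9.99%. Of those genes, 99.5%, 100% and 98.3% had a smaller value. The spread was uneven over the groups. In group A the highest rat had 1.23 times the Col1a1 of the lowest, and in group C 3.81 times. For Col3a1 these ratios were 1.89 in A and 5.67 in C, and for Fn1 1.43 and 2.70. The SD of log2 levels was 0.44 for Col1a1, 0.41 for Col3a1 and 0.29 for Fn1 in intact rats, and 0.90, 0.97 and 0.55 in injured rats, which mix 3 groups.

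The rats that were high in 1 gene were high in the others. Ranked by the mean centered log2 level of the 3 genes, rats 76, 89, 91 and 75 led, followed by 90, 95 and 94, and the 8th was rat 84, the first intact one. Rat 93 of group C ranked 14 of 17, among intact rats. Pearson's r of log2 levels over 17 rats was 0.85 for Col1a1 with Col3a1, 0.83 for Col1a1 with Fn1 and 0.85 for Col3a1 with Fn1 (Spearman's rho 0.69, 0.70 and 0.73). With the group means subtracted r was 0.86, 0.85 and 0.75. Among the 8 injured rats r was 0.91, 0.88 and 0.86, and among the 9 intact rats 0.28, 0.62 and 0.17. These are descriptions over rats that share libraries and groups, and no test was made of the difference between injured and intact rats.

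**Figure D4:**
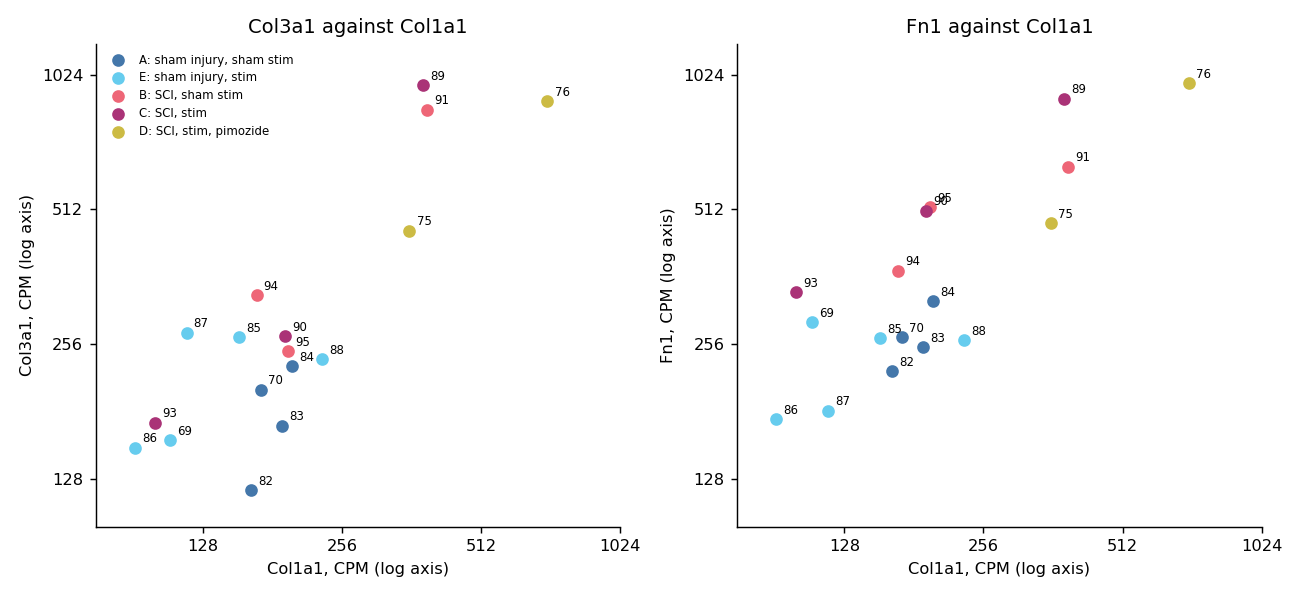
Col3a1 (left) and Fn1 (right) against Col1a1 in each of 17 rats, CPM on log axes, colored by group and marked with the rat's number. Rats 76, 89, 91 and 75 lie toward the upper right in both panels, and the intact rats form a cloud at the lower left in which Col3a1 follows Col1a1 loosely (r = 0.28).

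Ratios of the genes within a rat do not depend on library scaling, and they show where the genes parted. Per count of Col1a1, the counts of Col3a1 were 0.992 ± 0.213 in group A (SD, n = 4), 1.63 ± 0.468 in E, 1.81 ± 0.488 in B, 1.87 ± 0.594 in C and 1.27 ± 0.0185 in D. All rats of B, C and D were above all rats of A, while those of E spanned 1.02 to 2.30 and reached into both. Relative to Col1a1, Col3a1 was thus lowest in group A, a difference that was not tested.

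The ratio of Fn1 to Col1a1 was 1.46 ± 0.135 in A, 1.79 ± 0.556 in E, 2.17 ± 0.508 in B, 2.78 ± 0.497 in C and 1.36 ± 0.0335 in D. Both rats of D (1.33 and 1.38) lay below every rat of B and C (1.64 to 3.33). Rat 93, which had the lowest Col1a1 of the injured rats, had the highest ratio, 3.33. For Fn1 to Col3a1 the means were 1.51 in A, 1.15 in E, 1.33 in B, 1.60 in C and 1.07 in D, with wide overlap. Within group B alone the ratio went from 0.746 in rat 91 to 2.10 in rat 95, and the lowest of all rats was 0.669 in rat 87 of group E.

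**Figure D5:**
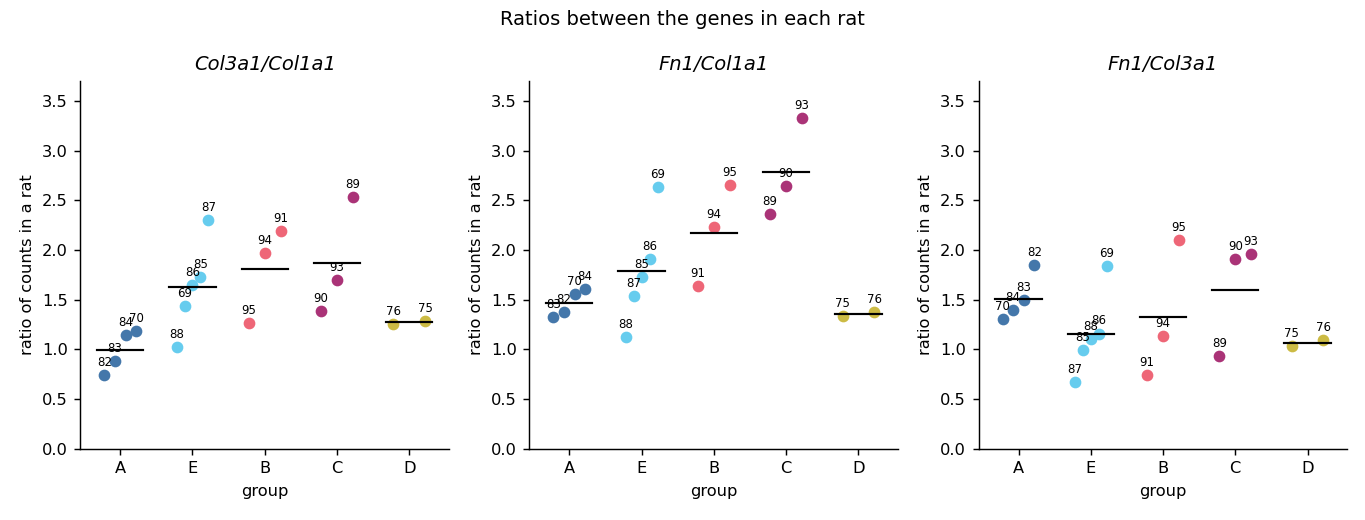
Ratio of counts of each pair of genes in each rat by group (point, rat with its number; line, group mean; linear axis from 0). Both rats of D have ratios of Fn1 to Col1a1 of 1.33 and 1.38, below the rats of B and C, and Col3a1 to Col1a1 is lowest in group A.

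To describe which genes varied most like these, each of the 14512 genes that averaged 1 CPM or more was correlated with the mean centered log2 level of Col1a1, Col3a1 and Fn1 over the 17 rats, and again with group means subtracted. None of the 8 most alike by either measure could be given a name. ENSRNOG00000001249 (r = 0.96 over rats and 0.96 within groups) and ENSRNOG00000007302 (0.95 and 0.98) were among the 8 by both measures. ENSRNOG00000007302 was called higher in injured rats (204 against 90.1 CPM, log2(FC) 1.22, adjusted p = 0.0029), and ENSRNOG00000001249 was not (102 against 56.2 CPM, 0.88, adjusted p = 0.0019). Of each 8, 4 were called higher in injured rats, beside 6.97% of all genes tested, but they were chosen for their likeness to genes that were higher in injured rats, and nothing is read from this count. The most opposite pattern over rats was that of ENSRNOG00000036828 (r = -0.96).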

How the data were processed

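Spinal cord RNA of 17 rats was sequenced after ribosomal RNA depletion with a stranded kit, 1 library per rat. The authors trimmed the reads (Trim Galore 0.4.1), aligned them with STAR 2.5.0a and counted them per Ensembl gene, with versions per the submitters' processing notes. The methods name Rnor_5.0 and the labels Rnor_6.0, and which strand column was counted is not given in the sources used here. The deposited values are whole-number counts of reads per gene, not normalized. Totals are given in the report; the rats, not the reads, set the precision. Groups followed the letter in the sample titles.

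Counts were analysed with edgeR 4.0.16 (filterByExpr, TMM, glmQLFit, glmQLFTest, Benjamini-Hochberg adjustment over 15460 genes), with DESeq2 1.42.0, edgeR's exact test and further settings as alternatives (R 4.3.3, Python 3.11.15 with scipy 1.17.1). Calls needed an FDR below 0.05 and an absolute log2(FC) over 1. Log2 levels are log2(CPM + 0.1). The fit was also run on simulated counts, with larger changes than those of Col1a1, Col3a1 and Fn1 between injured and intact rats. That run does not show how the test does at their changes and spread. The 4 genes and all lists were chosen with earlier results of these data known. By rule, the 4 genes were to be named in every contrast (Col1a2 was not tested), together with the 8 genes most like them over rats; called genes of 15 marker and pathway lists were to be named too. Names of the 4 identifiers came with the choice of genes, and 99 others were matched through a supplementary table of the study, which held 6 of 187 listed genes, all erythroid. Ratios, planned against Col1a2, were taken against Col1a1 and Col3a1, and the mean level over 3 genes, because Col1a2 had almost no counts. Protein sequences were not analysed here.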

Additional observations from a re-analysis of the deposited data

Results flagged for a closer look

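Among the levels of the 4 genes in groups of 4 or 5 rats, 1 value stood apart from its group by Dixon's ratio. Rat 82 of group A had 0.471 CPM of Col1a2, or 6 counts, where the other 3 rats of the group had 1 count each. At these counts the value has no weight as a level. The rule's rate of about 1 in 20 groups is for continuous values and does not hold where 3 rats have the same count. In Col1a1, Col3a1 and Fn1 the same rat was not apart from group A.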

How the results depend on the processing

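No paired analysis was possible because the rat numbers are unique to a rat and no number is shared between groups. In injured against intact rats Fn1 and Col3a1 were called under each of 10 alternatives (log2(FC) 1.13 to 1.32 and 1.25 to 1.49) and with each rat left out, and Fn1 also in ±st/SCI(0) and ±SCI(st) except without rat 89. The alternative with no limit on fold change reuses the same fit, so it could not lose a call. Col1a1 in injured against intact rats passed the call with total-count scaling (1.02), a term for the number series (1.00) and no limit on fold change (0.97). Col3a1 in ±SCI(0) passed it with the exact test on all rats (1.41) or on the 2 groups alone (1.42), without the filter on low counts (1.41) and with the groups fitted alone (1.43). It also passed in ±st/SCI(0) with both exact tests (1.38 and 1.39) and without the filter (1.41), and in ±SCI(st) with the exact test on all rats (1.12). Fn1 in ±SCI(0) passed with total-count scaling (1.01) and with no limit on fold change (0.95). Col3a1 in ±st(SCI) changed sign without the filter (0.0007). The cause of these changes was not tested. The other 259 values under these alternatives kept their direction and their side of the call, which takes both limits. Among them the FDR alone was lost by Fn1 in ±SCI(0) with robust dispersions (adjusted p = 0.054), the number series (0.052) and rats 82 to 95 (0.054), and by Col1a1 in injured against intact rats without group D (0.086) and among rats 82 to 95 (0.17).

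With each rat left out in turn, log2(FC) ranged for Col1a1 from 0.0088 to 0.70 in ±SCI(0), -0.30 to 0.69 in ±st/SCI(0), 0.060 to 1.04 in ±SCI(st), -0.78 to 0.31 with stimulation in injured rats, 0.67 to 1.87 with pimozide, 0.76 to 1.11 in injured against intact rats and -0.42 to 0.67 in the interaction. For Col3a1 it ranged from 0.68 to 1.72, 0.28 to 1.80, 0.019 to 1.53, -1.13 to 0.70, -0.029 to 1.63, 1.07 to 1.58 and -1.39 to 0.44 in the same order. For Fn1 it ranged from 0.75 to 1.13, 0.67 to 1.43, 0.85 to 1.61, -0.27 to 0.48, -0.29 to 0.79, 1.07 to 1.42 and -0.094 to 0.66. In ±st(0) it ranged from -0.62 (without rat 88) to -0.24 for Col1a1, 0.11 to 0.40 for Col3a1 and -0.26 to -0.076 for Fn1. The extremes came mostly from leaving out rats 89, 91, 93 and 76. With a rat of group D left out the lone rat was taken to vary like the other groups.

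The number of genes called moved too. It was 820 in ±SCI(0) (740 to 1912 under the alternatives, 557 to 889 with a rat left out), 1103 in ±st/SCI(0) (950 to 3380, 664 to 1415), 1285 in ±SCI(st) (1134 to 4429, 812 to 1554), 1137 in injured against intact rats (1059 to 6976, 1003 to 1343), 0 for ±st(SCI) (0 to 35, 0), 4 for ±pim(st/SCI) (1 to 73, 0 to 36), 0 in ±st(0) (0 to 24, 0 to 49) and 0 in the interaction (0, 0 to 3). Under the alternatives, the highest counts of the first 4 came with no limit on fold change and those of the next 3 with the exact test on 2 groups alone. The 49 in ±st(0) and the 3 in the interaction came without rat 82. The exact test gives no value for injured against intact rats or the interaction. Of the 4 genes, only Col1a2 had too few counts to pass the filter, and its values in the fit without the filter are not given, since they rest on at most 6 counts in a rat.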

Other observations

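Among the identifiers with a name that averaged 1 CPM or more, those whose levels most resembled the mean of Col1a1, Col3a1 and Fn1 over 17 rats were Masp1, a serine protease of the lectin complement pathway (r = 0.78), Uba7, the activating enzyme of the ubiquitin-like protein ISG15 (0.77), and the interferon-induced genes Ifit2 (0.76), Mx1 (0.69) and Oas2 (0.67). With group means subtracted r was 0.33, 0.19, 0.50, 0.0034 and -0.04. Of these 5 genes, 4 were called higher in injured than in intact rats by edgeR's quasi-likelihood test, beside 6.97% of all genes tested, but they were picked for likeness to genes higher in injured rats and nothing is read from the count. Among them were Mx1 (51.4 against 8.01 CPM, log2(FC) 2.53, adjusted p = 1.6e-05) and Masp1 (37.5 against 18.5 CPM, log2(FC) 1.01, adjusted p = 2.1e-08). Ifit2 passed the FDR but not the fold limit (27.0 against 16.6 CPM, log2(FC) 0.69, adjusted p = 0.00088). Fcnb, a gene of myeloid cells, had r = 0.66 over rats and 0.38 within groups. It was called higher in injured rats by the same test (6.10 against 1.45 CPM, log2(FC) 1.92, adjusted p = 0.00014). The myeloid genes S100a8, S100a9, Mpo, Np4, Ngp and Camp had r of 0.10 to 0.31 over rats and were not called. The named identifiers came from a table the study chose on these samples, and the correlations are descriptions over rats that share groups.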
